A study of Mus musculus with 2 samples.

Results

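The 3 adult hemoglobin genes Hbb-bs, Hbb-bt and Hba-a1 were studied in cultures of fibro/adipogenic progenitors (FAPs), a stromal cell population that resides in skeletal muscle. They were taken by gene name from the 179 genes of the authors' deposited table, and they are all 3 of its hemoglobin genes. The table holds only genes that the authors marked as significant between 1 library of Musclin-treated FAPs and 1 library of vehicle-treated FAPs. The members were therefore chosen by the same contrast that is described here, and their differences are given as a description with no test.

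Both cultures held freshly sorted cells from C57BL/6 mice, grown in DMEM with 20% fetal bovine serum. In one culture, Musclin, a peptide that muscle secretes, was present as the recombinant mouse protein at 1 µM, and the other had vehicle alone. Treatment lasted 72 hours, and the medium was renewed every day. With 1 library per group, the spread between cultures was not measured, so the treatment and any other difference between these cultures cannot be told apart.

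Hemoglobin carries oxygen in red blood cells as a tetramer of alpha and beta chains, each holding a heme group. The alpha genes and the beta genes lie in separate clusters, and red cell precursors normally make both chains in balanced amounts. C57BL/6 mice carry the beta haplotype with the adult genes Hbb-bs and Hbb-bt, while the adult alpha chain comes from the gene pair Hba-a1 and Hba-a2. In muscle, the cells best known to carry these transcripts are the red cells of its vessels.

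The members are short genes of 3 exons, and each has a near-copy beside it. Hbb-bs (ENSMUSG00000052305, a beta chain gene) spans chr7:103826534-103828096 in GRCm38, on the minus strand. Hbb-bt (ENSMUSG00000073940, the other adult beta chain gene) lies downstream of it at chr7:103812524-103813996, on the same strand. Hba-a1 (ENSMUSG00000069919, an alpha chain gene) spans chr11:32283511-32284465 on the plus strand.

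Coding sequences show how alike the copies are. Hbb-bs and Hbb-bt are identical at 440 of 441 coding bases, and the 1 difference is C417T, with positions counted from 1 at the A of the start codon and the base of Hbb-bs given first. Hba-a1 and its neighbour Hba-a2, which was not listed, are identical at 425 of 426 coding bases and differ by C381T, with the base of Hba-a1 first. The last 81 coding bases of each gene follow, 5′ to 3′ on the gene's strand, from the GENCODE M21 transcripts of GRCm38, with the differing base in capitals. They are shown because they hold the whole coding difference within each pair.
Hbb-bs, chr7:103826668-103826748, minus strand: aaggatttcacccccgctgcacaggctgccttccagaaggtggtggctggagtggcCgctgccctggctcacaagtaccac
Hbb-bt, chr7:103812659-103812739, minus strand: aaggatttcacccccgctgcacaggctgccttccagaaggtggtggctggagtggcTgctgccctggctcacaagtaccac
Hba-a1, chr11:32284308-32284388, plus strand: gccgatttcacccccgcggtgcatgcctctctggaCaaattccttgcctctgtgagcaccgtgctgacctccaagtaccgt
Hba-a2, chr11:32297125-32297205, plus strand: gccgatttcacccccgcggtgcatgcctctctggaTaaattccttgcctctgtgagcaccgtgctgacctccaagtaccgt

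All 3 members had higher levels in the Musclin library. Hbb-bs stood at a level of 12.31 in the vehicle library and 33.86 in the Musclin library, which is a ratio of 2.75. The level of Hba-a1 was 4.39 in the vehicle library and 14.85 in the Musclin library, a ratio of 3.38. For Hbb-bt the vehicle library gave a level of 0.45 and the Musclin library 2.53, a ratio of 5.62. On the log2 scale these level ratios were 1.46, 1.76 and 2.49. In both libraries the order of the levels was the same, with Hbb-bs highest, Hba-a1 next and Hbb-bt lowest, while the order of the ratios was the reverse. A level here is the authors' expression value per gene. Its unit is not stated in the file header, and it is taken to be per transcript length because RSEM, named in the submitters' processing notes, gives only such measures beside counts.

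**Figure D1:**
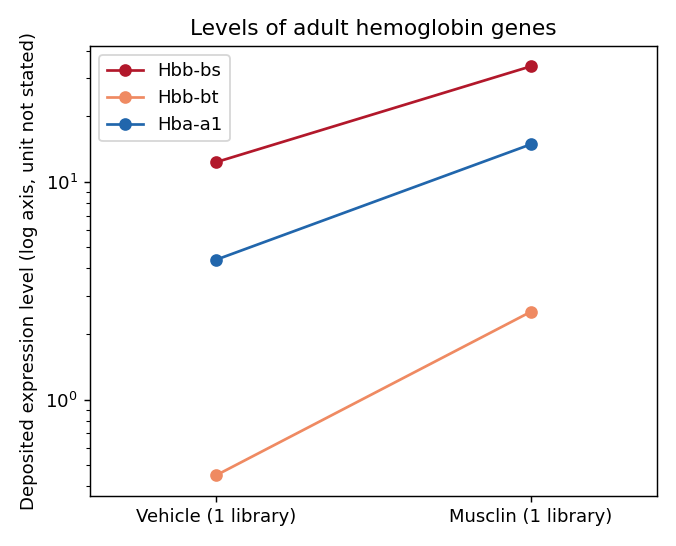
Deposited expression level (log axis, unit not stated) of Hbb-bs, Hbb-bt and Hba-a1 in the vehicle and the Musclin library, 1 point per library with no error bar, since there was 1 library per group. All 3 lines go up, from 12.31 to 33.86, from 0.45 to 2.53 and from 4.39 to 14.85.

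In the authors' deposited table, the fold was 2.75 for Hbb-bs, with an adjusted p of 7.64e-11. For Hba-a1, the fold in the authors' deposited table was 3.67, with an adjusted p of 7.08e-06. Hbb-bt has the largest fold of the members in the authors' deposited table, 5.59, and the weakest adjusted p, 0.0405, and only 16 of the 179 listed genes have a larger one. Of 23180 genes that the authors tested, 116 were listed as higher in Musclin, which is 0.500%, and the members are listed because they met that rule, so nothing is read from their count. These p-values compare 2 libraries and say nothing about the spread between cultures.

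The members were not extreme among the listed genes. Of the 93 genes that were higher in Musclin and above 0 in both libraries, Hbb-bt ranked 28 by level ratio, Hba-a1 ranked 51 and Hbb-bs ranked 62. The median level ratio of these 93 genes was 3.50, above the ratios of Hbb-bs and Hba-a1 and below that of Hbb-bt. By level itself, Hbb-bs was placed higher, at 24 of 179 in the vehicle library and 18 of 179 in the Musclin library. Hba-a1 was at 41 and 27, and Hbb-bt at 120 and 66. For comparison, the median level of all listed genes was 0.86 with vehicle and 1.33 with Musclin.

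**Figure D2:**
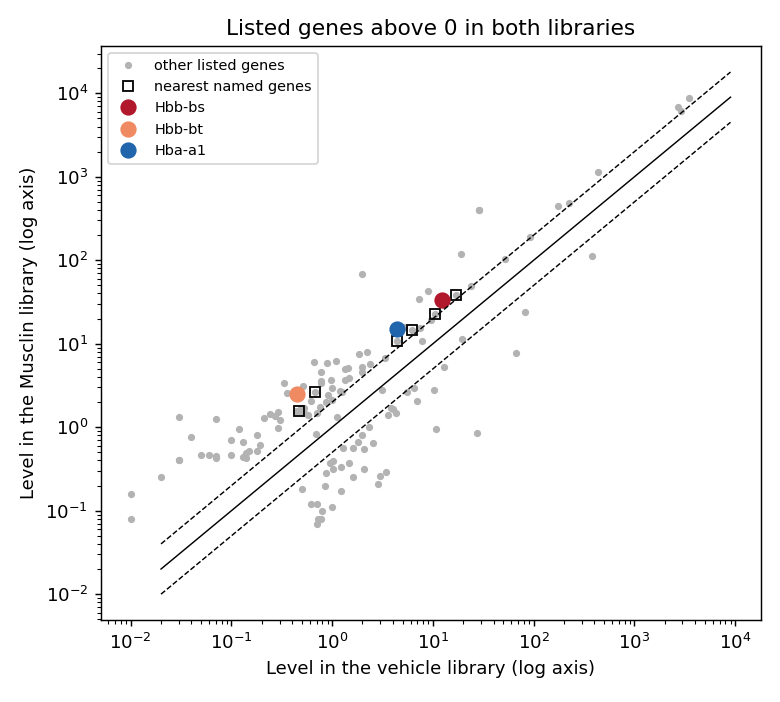
Level in the vehicle library (x) against level in the Musclin library (y), both on log axes, for the 138 listed genes above 0 in both libraries. The solid line marks equal levels and the dashed lines a ratio of 2 in either direction. The members (filled circles) lie above the upper dashed line, and open squares mark the 6 genes nearest to them.

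For each member, the 2 genes with the most similar pair of levels were found among listed genes with an ordinary symbol, by the distance between their log2 levels in the 2 libraries. Nearest to Hbb-bs were Ptges3-ps, a processed pseudogene with levels of 17.09 and 38.72, and Ifi47, an interferon-induced GTPase with levels of 10.42 and 22.60. Fam220a, with levels of 4.42 and 10.69, and Mx2, with levels of 6.26 and 14.48, were nearest to Hba-a1. Mx2, of the family of dynamin-like GTPases, is annotated as a polymorphic pseudogene. Nearest to Hbb-bt were Tspan13, a tetraspanin with levels of 0.68 and 2.63, and Kcnk4, a potassium channel with levels of 0.47 and 1.56. The distances ran from 0.47 to 0.70 on the log2 scale. With 2 libraries, such likeness describes a pair of levels and no shared pattern.

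At similar levels the members had weaker p-values than their protein-coding neighbours. Ifi47 had a level ratio of 2.17, below that of Hbb-bs, and yet an adjusted p of 7.87e-19 in the authors' deposited table. Fam220a had a level ratio of 2.42, below that of Hba-a1, and an adjusted p of 1.30e-15 in the authors' deposited table. For Tspan13 and Kcnk4, the neighbours of Hbb-bt, the adjusted p in the authors' deposited table was 2.72e-04 and 7.35e-03. Among neighbours annotated as pseudogenes, it was 3.97e-14 for Mx2 and 4.41e-05 for Ptges3-ps. The value of Ptges3-ps went the other way, being weaker than that of Hbb-bs. The longest annotated transcripts of the members are 628 nt for Hbb-bs, 699 nt for Hba-a1 and 703 nt for Hbb-bt, against 1773 nt for Ifi47, 2278 nt for Fam220a and a median of 2537 nt for the 85 listed protein-coding genes. Of those 85, none was shorter than Hbb-bs, 2 were shorter than Hba-a1 and 3 were shorter than Hbb-bt. The 85 include the members, so Hbb-bs is among the 2, and Hbb-bs and Hba-a1 are among the 3. Level times the length of the longest transcript in kilobases is a rough stand-in for reads within a library, if levels are per length. It is rough because the length behind the deposited levels is not stated. This product was 7.73 with vehicle and 21.3 with Musclin for Hbb-bs. It was 18.5 and 40.1 for Ifi47. For Hbb-bt it was 0.316 and 1.78, the lowest of the members in both libraries. Whether transcript length accounts for the weaker p-values was not tested.

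The ratio of alpha to beta level differed less between the libraries than the levels did. The members were listed because each was higher in Musclin, so a smaller difference in their quotient can follow from that choice. Hba-a1 over the sum of Hbb-bs and Hbb-bt was 0.344 in the vehicle library and 0.408 in the Musclin library, so alpha stood below the beta sum in both. Over Hbb-bt alone, the minor beta gene, the ratio was 9.76 with vehicle and 5.87 with Musclin, which turns the direction between the libraries. The summed level of the beta genes went from 12.76 to 36.39, a ratio of 2.85, against 3.38 for the alpha gene. The ratio of alpha to beta thus differed by a factor of 1.19 between the libraries, while the summed level of the 3 genes, 17.15 with vehicle and 51.24 with Musclin, differed by a factor of 2.99. Without a second culture per group, it is not known how far such a ratio varies by itself. Since Hba-a2 is not among the listed genes, its level is not part of the alpha sum, and the balance of all alpha against all beta transcripts was not measured.

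Hbb-bs held most of the beta level in both libraries, and Hbb-bt held a small share. Hbb-bt made up 3.53% of the beta level with vehicle and 6.95% with Musclin. The level of Hbb-bs was 27.4 times that of Hbb-bt in the vehicle library and 13.4 times in the Musclin library. The share of Hbb-bt therefore differed by more between the libraries than the ratio of alpha to beta did. It rests on a vehicle level of 0.45, at unknown depth.

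**Figure D3:**
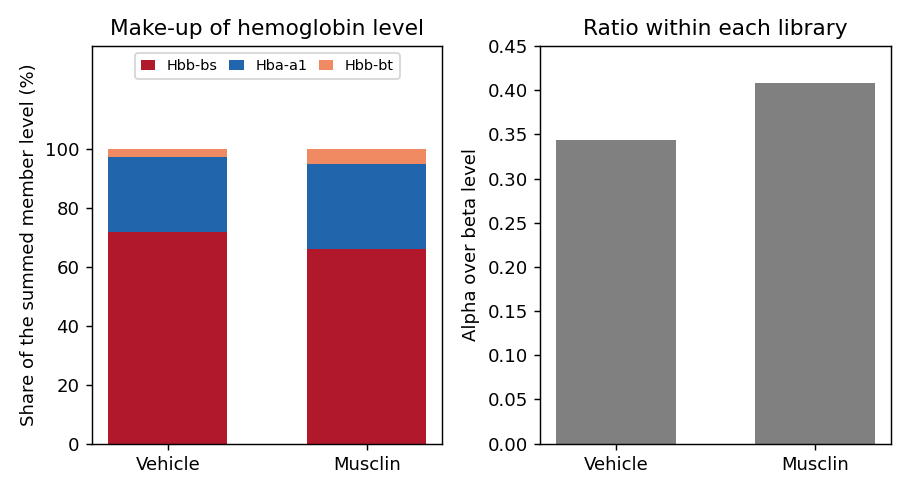
Left, share of the summed level of the 3 genes in each library, in percent, stacked by gene. Right, level of Hba-a1 over the summed level of Hbb-bs and Hbb-bt in each library. Hbb-bs holds 71.8% with vehicle and 66.1% with Musclin, and the ratio of alpha to beta is 0.344 and 0.408. Each bar is 1 library, with no error bar.

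How firmly the levels of near-copies can be told apart depends on where reads fall. In the main transcript of Hbb-bs, 381 of 579 windows of 50 nt (65.8%) also occur, base for base, in Hbb-bt, and 198 occur in no other annotated gene. Of those 198, 39 begin before the coding part, 50 begin in the coding part and cover the differing base, and 109 begin after that base. The corresponding transcript of Hbb-bt has 381 of 654 windows in common with Hbb-bs (58.3%) and 273 of its own. Of those 273, 73 begin before the RefSeq start of Hbb-bt, in a stretch that GENCODE M21 alone annotates. The sequences after the coding part, which are 70.8% identical between the 2 beta genes, thus give reads that separate them. Exact matches were searched on both strands of all M21 transcripts.

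For the alpha pair, few windows separate the copies outside the annotated start of Hba-a1. Of 650 windows of 50 nt in the Hba-a1 transcript, 439 (67.5%) also occur in Hba-a2. Of the 211 that do not, 50 cover the differing coding base, and the other 161 begin in the first 161 nt of the transcript. That stretch too is annotated by GENCODE M21 only, since the RefSeq transcript starts 161 nt further downstream. It also falls within a stretch before the RefSeq starts of Hba-a1 and Hba-a2 that is identical at 247 of 247 bases, so the genome holds it at both genes. The Hba-a2 transcript has 66 of 505 windows of its own. With windows of 150 nt, the share found in 1 gene alone was 51.6% for Hba-a1 and 34.3% for Hba-a2, beside 41.3% for Hbb-bs and 49.3% for Hbb-bt. The share of Hba-a1 was the highest of the 4 genes, but it counts the windows that begin in its first 161 nt. Its share without those windows was not computed, so the ranking does not show that Hba-a1 is the best separated. No source used here states how reads of the pair were divided, so the level of Hba-a1 may include reads of Hba-a2.

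**Figure D4:**
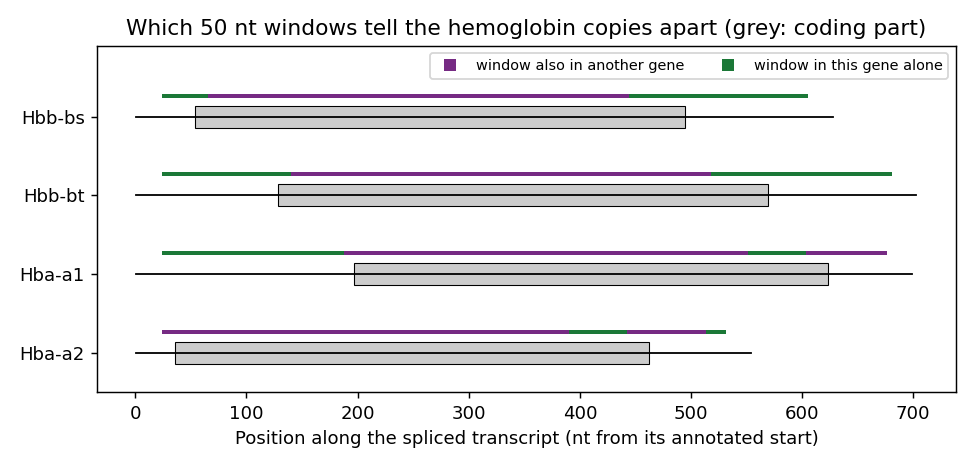
Spliced transcripts of Hbb-bs, Hbb-bt, Hba-a1 and Hba-a2, with position in nt from the annotated start on the x axis and the coding part as a grey box. Coloured marks stand at the centre of each 50 nt window, violet where the window also occurs in another gene and green where it occurs in 1 gene alone. The green marks of Hba-a1 are 161 windows at its start and 50 around the differing coding base.

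Hba-a1 also differed from the beta genes in how its level ratio related to the authors' fold. The log2 level ratio of Hba-a1 was 1.76 and the log2 fold of the authors' deposited table was 1.87, so that the former minus the latter was -0.12. For Hbb-bs this difference was -0.00073, and for Hbb-bt it was 0.0076. Over the 138 listed genes above 0 in both libraries, the quartiles of these differences were -0.021 and 0.033, and 34 of the 138 had a larger one in size than Hba-a1.

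The promoters of the members were read because the 3 genes were higher in the same library while lying on 2 chromosomes. Each line gives the 250 bases before the RefSeq start (GRCm38.p6), 5′ to 3′ on the gene's strand. Capitals mark every match, on either strand, to 4 short motifs of known adult globin promoters, GATAA (bound by GATA factors), CACCC (bound by factors of the Klf family), CCAAT (the CAAT box) and TATAA (the TATA box).
Hbb-bs, chr7:103827929-103828178, minus strand: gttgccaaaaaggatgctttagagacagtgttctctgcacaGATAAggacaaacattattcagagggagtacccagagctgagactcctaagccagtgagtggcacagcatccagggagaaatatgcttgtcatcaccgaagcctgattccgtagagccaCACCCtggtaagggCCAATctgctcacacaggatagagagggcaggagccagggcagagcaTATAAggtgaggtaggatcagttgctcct
Hbb-bt, chr7:103813924-103814173, minus strand: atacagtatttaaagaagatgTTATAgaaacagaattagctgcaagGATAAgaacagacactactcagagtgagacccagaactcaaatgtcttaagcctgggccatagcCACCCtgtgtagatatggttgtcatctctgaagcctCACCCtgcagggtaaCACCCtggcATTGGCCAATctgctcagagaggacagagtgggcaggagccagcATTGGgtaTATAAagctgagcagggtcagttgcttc
Hba-a1, chr11:32283422-32283671, plus strand: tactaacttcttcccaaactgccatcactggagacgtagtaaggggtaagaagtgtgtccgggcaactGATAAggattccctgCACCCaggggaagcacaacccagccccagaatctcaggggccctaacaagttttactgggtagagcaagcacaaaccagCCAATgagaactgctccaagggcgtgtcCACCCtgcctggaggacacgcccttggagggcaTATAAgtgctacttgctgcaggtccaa

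All 3 windows held all 4 motifs, with 18 matches in total and no overlap between them. On the gene's own strand, the TATAA match began 29 bases before the start in Hbb-bs, 28 in Hbb-bt and 27 in Hba-a1. The CCAAT match on that strand began 76, 75 and 88 bases before the start, and the GATAA match began 209, 204 and 182 bases before it. CACCC occurred once in Hbb-bs, at 90 bases, 3 times in Hbb-bt and 2 times in Hba-a1. Of 32851 promoter windows of the same length in the RefSeq table, 22.6% held GATAA, 52.0% held CACCC, 33.8% held CCAAT and 22.8% held TATAA, and 0.968% held all 4. The windows of the neighbouring genes Hbb-bs and Hbb-bt were 70.5% identical. The motifs were picked as those of known adult globin promoters, so their presence in these 3 windows follows from that choice. It is not a result about the level differences. A match describes letters in a window and does not show that a factor binds there in these cells.

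Other genes of red cells were not among the listed genes. The list of globins adds the embryonic and other adult genes of both clusters. Of its 14 names, 3 were higher, 0 were lower and 11 were not listed. The 3 are the members, which were chosen from the listed genes. Only 12 of the 14 names are in the annotation used here, so some of the 11 may not have been open to listing. Of 28 genes of the red cell membrane and its enzymes, such as Slc4a1 (the anion exchanger band 3) and Ank1 (ankyrin, which ties it to the membrane skeleton), 0 were listed. Of 14 genes of heme synthesis and erythroid iron, such as Alas2 (the erythroid enzyme that begins heme synthesis) and Ahsp (a chaperone of free alpha chains), 0 were listed, nor were any of 12 erythroid regulators, among them Gata1 and Klf1. The share of listed genes among these 54 erythroid genes was thus 0, beside a background of 0.772% of all genes tested, at which a list of this size need not hold any. None of 12 genes of heme and hemoglobin clearance was listed, such as Hmox1, which degrades heme, and Hp, which binds free hemoglobin.

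Markers of other cells gave the same count. None was listed of 11 genes of platelets, 13 of neutrophils, 15 of macrophages and other leukocytes, 14 of lymphocytes and 11 of endothelial cells. The same held for 10 genes of myogenic cells, for 4 globins outside red cells, such as Mb, the myoglobin of muscle fibres, and for 16 markers of FAPs, such as Pdgfra. Of all genes tested, 0.772% were listed, and at that share lists of 4 to 16 genes need not hold any. Nothing about these cell types is read from the counts. A gene that is not listed did not meet the authors' rule or was not among the genes tested, and its level was not analysed here. The label of the cells could therefore not be checked against marker levels. Since the levels of Alas2 and Slc4a1 are unknown, the part of red blood cells carried through the sort in the hemoglobin levels was not tested, nor was that of transcription in the stromal cells. In a bulk library, more cells that carry a transcript and more of it per cell cannot be told apart.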

How the data were processed

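RNA was sequenced from 2 FAP cultures, 1 per group. The authors deposited a table of 179 listed genes with an expression signal per library, a fold (ratio), its log2 value, a p-value and an adjusted p-value. The submitters' processing notes name RSEM, edgeR and the build GRCm38.p5, and give no version and no role for any. Not given in the sources used here were the aligner, annotation, filters, strandedness and dispersion. The column headed PBS, the denominator of the fold, was taken as vehicle. Read counts and totals were not analysed here, so depth is unknown and no interval was computed.

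Level ratios were computed with no pseudocount. The number of genes tested, 23180, was the smallest number that made the rank implied by p and adjusted p whole, within 0.001, for each of the 178 genes whose p exceeds 0. On simulated data the step recovered the number in 10 of 10 simulations of 170 genes each. Genes were placed with GENCODE M21 (GRCm38), promoters came from RefSeq (GRCm38.p6), and all 3 members matched both. Global alignments used Biopython 1.88 (match 1, mismatch -1, gap opening -2, gap extension -1). Tables were made in pandas 2.3.3 with numpy 2.4.6 and Python 3.11.15, and figures in matplotlib 3.10.9.

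The members, the gene lists (174 genes, 171 in the annotation), the motifs and the alternatives were chosen with earlier results of these data known. Named genes were the members, any listed gene of those lists and the 2 nearest listed genes of each member with an ordinary symbol (no Gm number, Rik clone, numbered pseudogene or bare ID). The alternatives were pseudocounts of 0.1, 1 and 5, the authors' log2 fold in place of level ratios, sums without 1 gene, other denominators, thresholds of 0.01 and 0.001 on the adjusted p, a log2 fold of 2, a level minimum of 1, genes above 0 in both libraries and protein-coding genes alone.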

Additional observations from a re-analysis of the deposited data

How the results depend on the processing

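No paired analysis was possible because each group had 1 library, and for the same reason no replicate could be left out. With no spread to judge by, a value was counted as moved when it changed by more than 1.5 times, which happened in 12 of 48 alternatives. No log2 level ratio of a member, or of their summed level, changed sign. With a pseudocount of 1, the log2 level ratio of Hbb-bt went from 2.49 to 1.28, and with a pseudocount of 5 it was 0.47, while that of Hba-a1 was 1.08. These losses follow from low levels. Hba-a1 over Hbb-bt alone gave 9.76 with vehicle and 5.87 with Musclin, so that alpha stood above this minor beta gene. The direction between the libraries was then opposite to that of alpha over all beta. Over Hbb-bs alone, the ratio was 0.357 with vehicle and 0.439 with Musclin. Of the members, 2 (Hbb-bs and Hba-a1) passed an adjusted p of 0.01 and of 0.001, and 1 (Hbb-bt) passed a log2 fold of 2. Over all listed genes, an adjusted p of 0.01 kept 72 higher and 34 lower, 0.001 kept 52 and 16, and a log2 fold of 2 kept 61 and 36. Depth is unknown, so how many reads stand behind a level of 0.45 could not be stated.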
